A study of Homo sapiens with 9 samples.

Results

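The comparison described here is that of GC-1 with vehicle in HepG2 cells, a human line derived from a liver tumour. It comprised 6 of the 9 arrays of the cell experiment: 3 from cells given vehicle and 3 from cells given 10 nM GC-1. All cells were kept in medium whose serum had been depleted of thyroid hormone, the vehicle cells included, and RNA was taken after 24 h. The remaining 3 arrays came from cells given 10 nM T3 (triiodothyronine) for the same time. They entered the estimate of the spread and the side-by-side values. Whether replicates came from different dishes is not in the labels. The p-values thus reflect the variation among these arrays alone, which may be technical. A single tumour line without other liver cell types limits the model.

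Thyroid hormone acts mainly through nuclear receptors that sit on DNA, usually paired with the retinoid X receptor, and that change from repressors to activators when the hormone binds. The liver answers through the beta receptor in the main, with changes in glucose, lipid and hormone metabolism. GC-1, also known as sobetirome, is a synthetic ligand that prefers the beta receptor. It has alkyl groups where T3 has iodine, a methylene bridge in place of the ether oxygen and an oxyacetic acid in place of the amino acid side chain.

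The liver identity of the cells was checked on markers. The mean vehicle signal was 14.4 for AFP and ALB and 13.9 for APOA1, on the log2 scale of the arrays. Over the 17 hepatocyte markers measured it ran from 6.86 to 14.4, with a median of 13.5. The lowest of them thus lay within the range of most markers of other cell types. Of 20 markers of other cell types measured, 18 had mean vehicle signals between 3.44 (LUM) and 7.24 (DCN), with PTPRC of blood cells at 4.88 and CDH5 of endothelium at 4.83. LYZ at 12.5 and COL1A1 at 9.19 were the exceptions. In GC-1 minus vehicle 0 of the 20 passed by limma (5 at an unadjusted p under 0.05), and 3 had all GC-1 arrays above and 2 all GC-1 arrays below the vehicle arrays. The array medians lay between 7.03 and 7.06 in the 6 arrays. Interquartile ranges were 2.87 to 2.88 with vehicle and 2.83 to 2.85 with GC-1, so the GC-1 arrays were slightly narrower. T3 replicate 3 stood apart from the other T3 arrays: the SD of the difference between T3 arrays reached 0.178, against at most 0.132 between GC-1 arrays and 0.122 between vehicle arrays. Counts are therefore given with and without it.

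GC-1 changed the signal of 622 of 22215 probe sets (2.8%) at an adjusted p under 0.05 (limma, Benjamini-Hochberg over all probe sets), 403 higher (1.81%) and 219 lower (0.986%). Without T3 replicate 3 the counts were 602 and 670. In a fit of the 6 arrays alone they were 522 and 539, so the excess of increases did not hold there. Read as 1 probe set per gene, 390 of 11963 genes passed (3.26%), 251 higher (2.1%) and 139 lower (1.16%). Changes were small: the median called increase was 0.34 and the median called decrease -0.29 in log2 units, and 46 genes rose (0.385%) and 7 fell (0.0585%) by at least 1.5-fold. The genes that rose had a median vehicle signal of 8.67 and those that fell one of 9.09, against 7.52 over all genes.

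Among called genes whose 6 arrays did not overlap, the 15 largest increases and the 15 largest decreases are described below. They leave out 52 genes already known to respond or already examined in this comparison, such as G6PC1, KLF9 and SLC2A1. That the arrays of these 30 genes do not overlap is a condition of the choice. Over all genes 12.0% had every GC-1 array above every vehicle array and 17.3% every GC-1 array below.

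The gene starts of the leading genes were inspected. RefSeq promoter windows on GRCh38.p14 held 24 of the 30 genes. Shown are those of C8B, DEPP1 and TIPIN, each 300 bases long from 250 before to 50 after the start, because they stand for the strongest changes in each direction among those held. The 3 genes lie on the minus strand, and the sequence reads 5′ to 3′ in the direction of transcription. Capitals mark TGTTTAC or its reverse complement, the core bound by forkhead factors.
C8B, chr1:56965966-56966265: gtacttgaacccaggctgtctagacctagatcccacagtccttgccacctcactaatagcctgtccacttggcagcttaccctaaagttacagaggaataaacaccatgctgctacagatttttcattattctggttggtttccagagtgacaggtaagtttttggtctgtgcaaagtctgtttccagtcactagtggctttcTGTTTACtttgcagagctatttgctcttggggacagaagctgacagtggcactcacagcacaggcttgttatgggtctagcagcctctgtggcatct
DEPP1, chr10:44978760-44979059: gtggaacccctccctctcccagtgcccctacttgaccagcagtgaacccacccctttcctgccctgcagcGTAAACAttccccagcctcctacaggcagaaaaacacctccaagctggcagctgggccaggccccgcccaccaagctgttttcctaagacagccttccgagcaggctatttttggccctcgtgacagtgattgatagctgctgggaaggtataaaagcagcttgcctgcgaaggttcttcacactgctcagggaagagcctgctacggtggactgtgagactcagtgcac
TIPIN, chr15:66386668-66386967: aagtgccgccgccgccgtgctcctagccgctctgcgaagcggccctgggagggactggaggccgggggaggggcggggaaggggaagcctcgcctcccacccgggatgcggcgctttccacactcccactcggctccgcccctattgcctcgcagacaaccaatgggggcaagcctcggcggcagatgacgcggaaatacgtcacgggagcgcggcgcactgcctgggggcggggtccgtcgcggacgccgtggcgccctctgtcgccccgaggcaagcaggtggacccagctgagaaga
C8B held the forkhead core with its first base at -47 from the start, and DEPP1 held it on the opposite strand at -180. TIPIN held none. The receptor half-site AGGTCA occurred in none of these 3 windows on either strand. Over all 27305 promoter windows, 3.41% held TGTTTAC and 13.9% held AGGTCA on either strand, while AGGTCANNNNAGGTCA, the direct repeat of that half-site, which it contains, occurred in 5. Of the windows of genes that rose, 8 of 196 held TGTTTAC (4.08%) and 26 AGGTCA (13.3%). For genes that fell these numbers were 1 of 121 (0.826%) and 11 of 121 (9.09%), and for the 9563 measured genes with a window the shares were 2.50% and 10.3%. TGTTTAC was picked after the printed windows were seen, and C8B and DEPP1 count among the 8. The shares of TGTTTAC are therefore no independent check of that motif. All of these are matches of letters and were not tested as sites.

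C8B, C8A and F13B, which encode secreted plasma proteins made by the liver, were among the 15 largest increases. C8B encodes the beta chain of complement component C8, part of the membrane attack complex. Its log2 signal was 7.10, 7.35 and 7.23 with vehicle and 8.43, 8.26 and 8.13 with GC-1. The lowest GC-1 array lay well above the highest vehicle array. C8B rose by 1.04 ± 0.09 (SE, 3 arrays a group; 2.06-fold, adjusted p = 0.000101, limma). C8A, the alpha chain, had 8.048, 7.974 and 7.996 with vehicle and 8.77, 8.74 and 8.76 with GC-1. The GC-1 arrays of C8A agreed to within a few hundredths of a unit, and the rise was 0.75 ± 0.05 (adjusted p = 1.29e-05). F13B, the carrier subunit of clotting factor XIII, was near the lower end of the array's range, at 4.70, 4.91 and 4.59 with vehicle and 5.32, 5.65 and 5.58 with GC-1. It rose by 0.78 ± 0.12 (adjusted p = 0.00386). Among hepatocyte markers, 2 of 17 rose (11.8%, against 2.1% of all genes) and 0 fell. APOC3, an inhibitor of lipoprotein lipase, was the one not in the set of 52, with a difference of 0.28 (adjusted p = 0.0152). That call was lost when any 1 vehicle or GC-1 array was left out. The list had a median difference of 0.08, against -0.005 over all genes, and 11 of 17 had all GC-1 arrays above the vehicle arrays. That is 64.7%, against 12.0% of all genes and 14.9% of genes at or above the median signal. After quantile normalization it was 12 of 17, against 13.4% and 19.2%. Scale normalization gave 9 of 17, against 10.4% and 12.8%, and median centring 10 of 17, against 10.5% and 13.3%.

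TCIM, a small regulator of transcription in the Wnt pathway, showed the largest increase of the 30. Its signal was 7.57, 7.58 and 7.79 with vehicle and 8.80, 8.66 and 8.64 with GC-1. All 3 treated arrays exceeded all vehicle arrays by over 0.8, and the difference was 1.06 ± 0.09 (2.08-fold, adjusted p = 8.36e-05). DEPP1, a target of FOXO factors tied to autophagy, had 8.72, 9.04 and 8.86 with vehicle and 10.01, 9.81 and 9.70 with GC-1. Both of its probe sets rose, by 0.72 and 0.97, the latter with an SE of 0.10 and an adjusted p of 0.000257. RHEX, an adaptor in erythropoietin signalling, had 6.83, 6.60 and 6.89 with vehicle and 7.63, 7.59 and 7.60 with GC-1. The treated arrays of RHEX lay closer together than the vehicle arrays, and it rose by 0.83 ± 0.07 (adjusted p = 0.000104), while its other probe set differed by 0.24 without passing.

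GBE1, the glycogen branching enzyme, had the smallest adjusted p of the 30 genes. Its signal was 10.87, 10.84 and 10.79 with vehicle and 11.67, 11.66 and 11.61 with GC-1. The vehicle arrays differed by less than 0.1, and GBE1 rose by 0.81 ± 0.05 (1.76-fold, adjusted p = 4.54e-06).

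Steroid-inactivating enzymes rose as a pair. HSD17B2, which oxidises oestradiol and testosterone, had 7.48, 7.52 and 7.33 with vehicle and 8.21, 8.22 and 8.31 with GC-1. HSD11B2, which turns cortisol into cortisone, had 6.33, 6.03 and 6.26 with vehicle and 6.76, 6.97 and 7.18 with GC-1. In both genes the arrays separated completely, and HSD11B2 varied more among replicates. The differences were 0.81 ± 0.06 (adjusted p = 2.87e-05) for HSD17B2 and 0.76 ± 0.11 (adjusted p = 0.00243) for HSD11B2. AKR1C3, a ketosteroid reductase, rose by 0.24 (adjusted p = 0.0274, limma). With it, HSD17B2 and HSD11B2 made up the 3 of 33 retinoid and steroid genes that passed. That is 9.09% higher, against 2.1% of all genes, and 0 fell. This list had a median of 0.08, and 27 of 33 differences were positive. Its count of increases was 6 with the 6 arrays alone and 2 when any single vehicle or GC-1 array was left out.

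Genes of the extracellular matrix moved in both directions, with 5 of 41 higher (12.2%) and 2 lower (4.88%) and a median of 0.01. Over all genes 2.1% were called higher and 1.16% lower. LOX crosslinks collagen and elastin. It had 9.03, 9.18 and 9.09 with vehicle and 9.90, 9.78 and 9.82 with GC-1, and all 3 of its probe sets rose, by 0.46 to 0.73. MMP11, the protease stromelysin 3, had 7.87, 7.99 and 7.97 with vehicle and 8.66, 8.72 and 8.67 with GC-1. Both genes separated without overlap, MMP11 rising by 0.75 ± 0.05 (adjusted p = 1.59e-05) and LOX by 0.73 ± 0.05 (adjusted p = 2.87e-05). The probe sets of MMP11 ran from 0.11 to 0.75, with 2 of 3 called. COL18A1, a basement membrane collagen, rose by 0.43 (adjusted p = 0.00116). ITIH1, which binds hyaluronan, rose by 0.30 (adjusted p = 0.00675) and LAMC1, a laminin chain, by 0.27 (adjusted p = 0.0214). LAMC1 missed the threshold without vehicle replicate 2 or 3 or any 1 GC-1 array. SPP1 (osteopontin) had 11.83, 11.86 and 11.78 with vehicle and 11.51, 11.42 and 11.40 with GC-1. It fell by 0.38 (adjusted p = 0.00483), and SPARC, another matricellular protein, fell by 0.37 (adjusted p = 0.00716).

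HEG1, a transmembrane protein of endothelial and epithelial junctions, had 8.33, 8.37 and 8.38 with vehicle and 9.07, 9.14 and 9.17 with GC-1. It rose by 0.77 ± 0.07 (adjusted p = 0.000115), while its other probe set differed by 0.21 without passing. ARSB, the lysosomal sulfatase of dermatan and chondroitin sulfate, had 7.33, 7.13 and 7.27 with vehicle and 7.86, 8.02 and 8.02 with GC-1. In both genes the treated arrays formed a tight group above the untreated ones, and ARSB rose by 0.72 ± 0.07 (adjusted p = 0.000214). RIN2, an exchange factor for the endosomal GTPase Rab5, rose by 0.71 ± 0.11 (adjusted p = 0.00628). Each of the 15 increases passed under every one of the up to 18 other settings in which it could be computed.

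**Figure D1:**
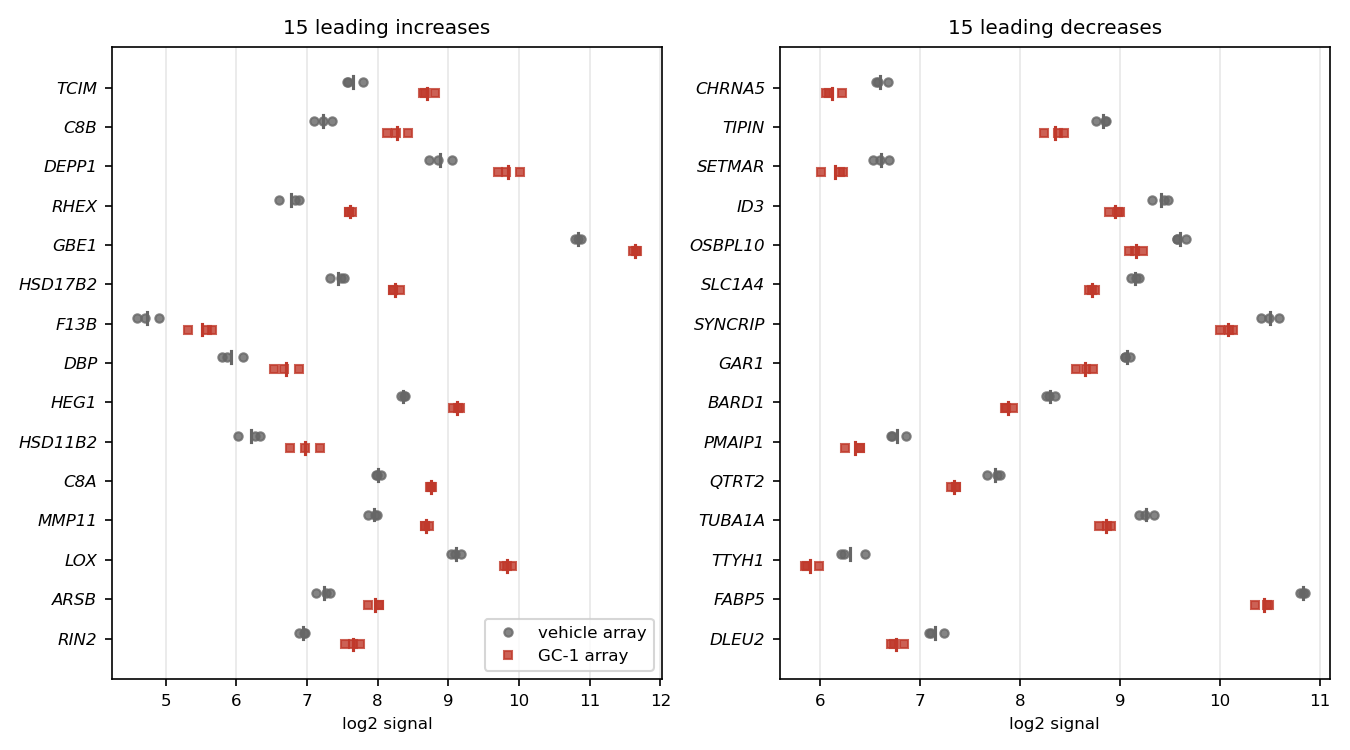
Log2 signal on each vehicle array (grey circles) and each GC-1 array (red squares) for the 15 leading increases and the 15 leading decreases, with a short bar at each group mean. The increases run from 0.71 (RIN2) to 1.06 (TCIM) and the decreases from -0.39 (DLEU2) to -0.48 (CHRNA5).

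The core clock is a feedback loop of CLOCK and BMAL1 with PER and CRY, and its output runs partly through DBP, HLF and TEF, activators of D-box elements, and through NFIL3, which represses the same elements. Of 17 clock genes, 4 rose (DBP, HLF, NFIL3 and CSNK1D) and 0 fell, with a median of 0.12. That is 23.5% higher, against 2.1% of all genes. DBP had 6.10, 5.80 and 5.87 with vehicle and 6.53, 6.88 and 6.68 with GC-1. HLF had 11.17, 11.21 and 11.18 with vehicle and 11.71, 11.66 and 11.64 with GC-1. Replicates spread far less in HLF than in DBP, and neither overlapped. DBP rose by 0.78 ± 0.10 (adjusted p = 0.0012) on 1 of its 2 probe sets, the other differing by 0.12. HLF rose by 0.49 ± 0.05 (adjusted p = 0.00033), and by 0.46 to 0.49 over its 3 probe sets. NFIL3 had 10.97, 10.97 and 10.91 with vehicle and 11.27, 11.21 and 11.27 with GC-1, a rise of 0.30 (adjusted p = 0.00847). CSNK1D, a kinase that phosphorylates PER proteins, rose by 0.28 (adjusted p = 0.00904). NFIL3 no longer passed without vehicle replicate 3 (adjusted p = 0.0512), and CSNK1D without vehicle replicate 1 or GC-1 replicate 2. TEF differed by 0.12 (adjusted p = 0.327). In the core loop BMAL1 differed by 0.17 (adjusted p = 0.176), CLOCK by 0.13 (0.397), PER2 by 0.14 (0.222), CRY1 by -0.16 and NR1D2 by -0.20 (0.537). Those differences did not pass the test. The median of the clock list depended on the setting. It was 0.057 with genes read as the mean over their probe sets, 0.0775 without GC-1 replicate 1 and 0.13 with dim probe sets left out.

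The leading decreases were smaller than the increases, at 1.40-fold or less. CHRNA5, a nicotinic receptor subunit, had 6.58, 6.68 and 6.56 with vehicle and 6.09, 6.05 and 6.22 with GC-1. It fell by 0.48 ± 0.08 (adjusted p = 0.0119). ID3, which blocks basic helix-loop-helix factors, had 9.32, 9.44 and 9.48 with vehicle and 9.00, 8.97 and 8.89 with GC-1. Every ID3 array of treated cells lay below every vehicle array, and it fell by 0.46 ± 0.06 (adjusted p = 0.00232). SLC1A4, a transporter of neutral amino acids, had 9.19, 9.16 and 9.11 with vehicle and 8.69, 8.75 and 8.72 with GC-1. It fell by 0.43 ± 0.05 (adjusted p = 0.000436), and 3 of its 4 probe sets passed. FABP5, a carrier of fatty acids, had 10.85, 10.80 and 10.83 with vehicle and 10.35, 10.47 and 10.49 with GC-1. Its replicates were tight in both groups, and it fell by 0.39 ± 0.06 (adjusted p = 0.00547). SETMAR, a fusion of a histone methyltransferase and a transposase, fell by 0.46 ± 0.07 (adjusted p = 0.00707). ID3, SLC1A4, FABP5 and SETMAR were the 4 of 15 decreases that passed under all other settings. OSBPL10, an oxysterol-binding protein relative, fell by 0.44 ± 0.06 on its brightest probe set (adjusted p = 0.00251), but its 3 probe sets ran from -0.44 to 0.03 and their mean did not pass (-0.15, adjusted p = 0.106).

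The other leading decreases had larger adjusted p. TIPIN, which protects replication forks together with TIMELESS, had 8.76, 8.86 and 8.85 with vehicle and 8.24, 8.38 and 8.44 with GC-1. It fell by 0.47 ± 0.11 (adjusted p = 0.038). BARD1, a ubiquitin ligase subunit in DNA repair, had 8.29, 8.35 and 8.26 with vehicle and 7.93, 7.85 and 7.86 with GC-1. It fell by 0.42 ± 0.08 (adjusted p = 0.0201), with no overlap between groups. GAR1, a protein of the particles that guide pseudouridylation, had 9.05, 9.05 and 9.10 with vehicle and 8.56, 8.73 and 8.66 with GC-1, a fall of 0.42 ± 0.09 (adjusted p = 0.0282). SYNCRIP, an RNA-binding protein, fell by 0.42 ± 0.10 (adjusted p = 0.0452), with 2 of 5 probe sets passing. QTRT2, a subunit of the enzyme that puts queuine into tRNA, fell by 0.40 ± 0.09 (adjusted p = 0.0389). PMAIP1, the BH3-only protein NOXA, fell by 0.41 ± 0.09 (adjusted p = 0.0309). TUBA1A (alpha tubulin), TTYH1 (a membrane protein of the tweety family) and DLEU2 (a noncoding RNA) fell by 0.40, 0.40 and 0.39, with adjusted p of 0.0183, 0.0372 and 0.0397. These calls rest on all the arrays: TIPIN, BARD1, GAR1, SYNCRIP, QTRT2, PMAIP1, TTYH1 and DLEU2 missed the threshold whenever any 1 vehicle or GC-1 array was left out. TUBA1A missed it without vehicle replicate 2 or 3 or any GC-1 array, and CHRNA5 without vehicle replicate 2 or GC-1 replicate 1 or 2.

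Ribosome biogenesis genes, which make and process ribosomal RNA and assemble the subunits, had the lowest median of the lists, -0.14. Of 29 measured, 28 differences were negative, and in 23 (79.3%) all GC-1 arrays lay below all vehicle arrays, against 17.3% of all genes and 28.1% of genes at or above the median signal. Averaged over the list, the vehicle arrays lay at -0.04, 0.02 and 0.02 from their common mean and the GC-1 arrays at -0.17, -0.15 and -0.15. The 3 treated arrays were thus alike and all below the untreated ones. Single genes moved too little for most to pass: 2 fell (GAR1 and GNL2) and 0 rose. That is 6.9% lower, against 1.16% of all genes. Called probe sets with several symbols were not read, among them those naming DKC1 (-0.43 and -0.30) and NOP56 (-0.26). GNL2, a nucleolar GTPase of large-subunit assembly, had 8.61, 8.59 and 8.62 with vehicle and 8.27, 8.36 and 8.27 with GC-1. It fell by 0.31 ± 0.05 (adjusted p = 0.0108), a call lost without replicate 1 or 3 of either group. RRS1 differed by -0.35 (adjusted p = 0.0612), UTP18 by -0.20 (0.086), nucleolin (NCL) by -0.14 (0.21), fibrillarin (FBL) by -0.08 (0.467) and NPM1 by -0.04 (0.764). POLR1B, a subunit of RNA polymerase I, was the 1 positive difference, at 0.12. The median stayed between -0.14 and -0.15 under quantile, scale and median normalization, with 21 to 25 of 29 genes below. The count of decreases was 5 with the 6 arrays alone, 8 without T3 replicate 3 and 0 to 1 when a vehicle or GC-1 array was left out. The narrower GC-1 arrays noted above move with this shift, and their part in it was tested only through those normalizations.

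**Figure D2:**
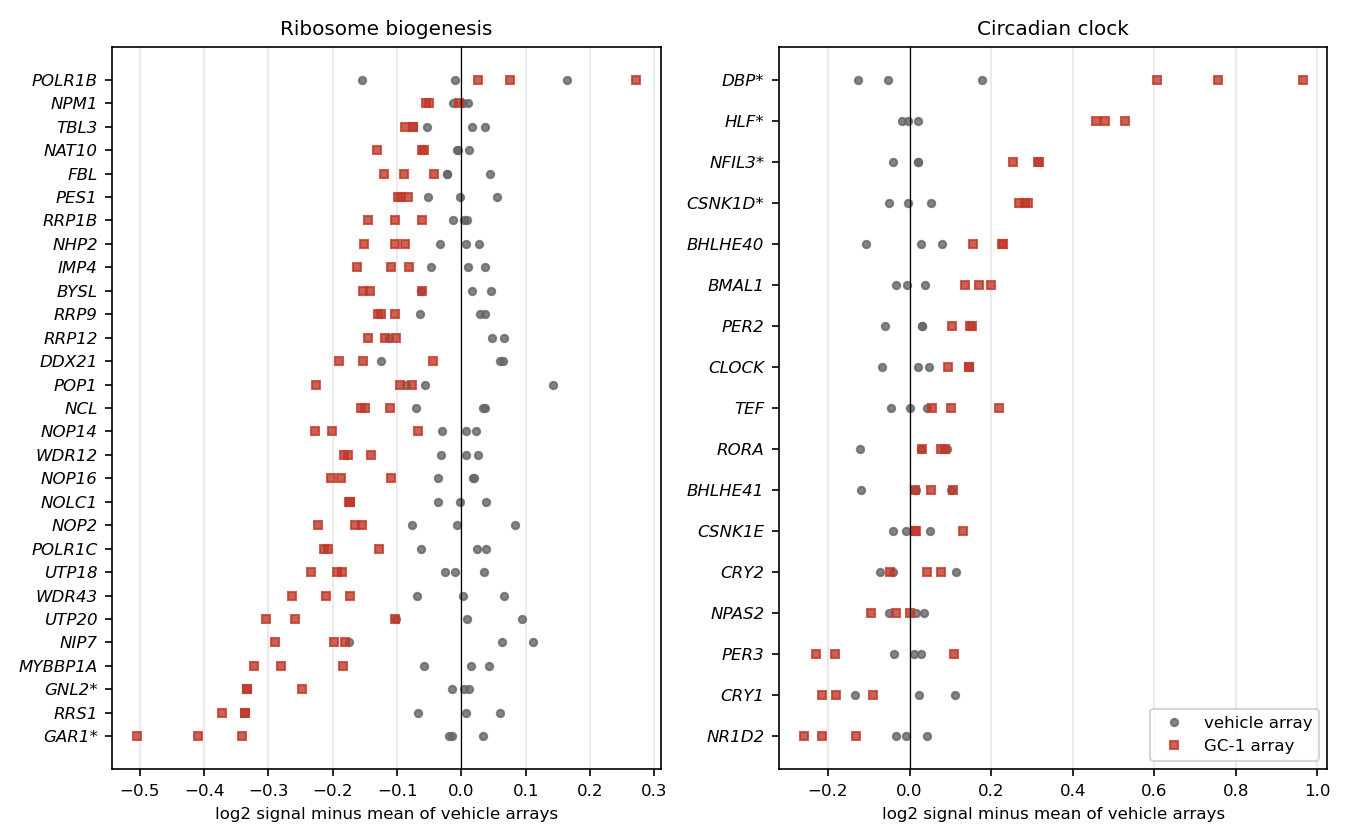
Each array's log2 signal minus the mean of the vehicle arrays for the measured ribosome biogenesis genes (left) and clock genes (right), with vehicle as grey circles, GC-1 as red squares and an asterisk at genes past the threshold. GC-1 arrays lie to the left in all but 1 of 29 ribosome biogenesis genes by group mean, while in the clock list DBP and HLF lie farthest to the right.

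Other lists of growth and protein upkeep also had negative medians. The share called lower over all genes was 1.16%. Over genes at or above the median signal the median was -0.025, with 28.1% having all GC-1 arrays below. Quantile normalization gave these genes -0.006 and 22.5%, and scale normalization -0.036 and 31.3%. Their median signal was 9.10, against 9.42 to 11.3 for the lists named here and in the next paragraph. Quantile normalization gave medians of -0.056 (mitochondrial), -0.057 (purine and pyrimidine), -0.059 (heat shock), -0.051 (splicing), -0.039 (synthetases) and -0.01 (proteasome). Scale normalization moved each list lower instead. Mitochondrial translation and import genes had a median of -0.08, 38 of 41 differences negative, 23 of 41 with all GC-1 arrays below, and 0 called by limma (10 lower at an unadjusted p under 0.05). MRPL3, a mitochondrial ribosomal protein, differed by -0.19 (adjusted p = 0.057) and TFAM, which packages and transcribes mitochondrial DNA, by -0.24 (0.104). These are the brightest probe sets. A dimmer one of TFAM passed, at -0.23 (adjusted p = 0.0498), and its remaining one was at -0.25 (0.131). Purine and pyrimidine enzymes also had a median of -0.08, with 17 of 33 below. PRPS2, which makes the ribose donor of nucleotides, had 9.38, 9.38 and 9.35 with vehicle and 8.89, 9.02 and 9.09 with GC-1, and was the 1 gene called (a fall of 0.37, adjusted p = 0.0337). Further enzymes of this list stood just outside the threshold, NME1 at -0.21 (0.0516), PNP at -0.24 (0.0581) and PFAS at -0.25 (0.0585). The count of this list was 5 with the 6 arrays alone, 9 without T3 replicate 3 and 0 without any single vehicle or GC-1 array.

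Heat shock proteins and chaperonins had a median of -0.075 and 13 of 24 genes below. On their brightest probe set 2 fell (8.33%, against 1.16% of all genes). HSPH1, a large chaperone of the HSP110 family, fell by 0.35 (adjusted p = 0.0308), and the small heat shock protein HSPB1 fell by 0.27 (adjusted p = 0.026). Both calls were lost when any vehicle or GC-1 array was left out. Among called probe sets with several symbols, which entered no list, those naming HSPA1A and HSPA1B fell by 0.37, 0.32 and 0.29. CCT2 passed only on its dimmer probe set, at -0.28 (adjusted p = 0.0462), against -0.20 (0.105) on the brightest. Splicing factors had a median of -0.07, with 16 of 38 below. SRSF7 fell by 0.30 (adjusted p = 0.0378), a call lost without any 1 vehicle or GC-1 array. SRSF3 passed only on its dimmer probe sets, at -0.25 and -0.29 (adjusted p = 0.0442 and 0.0464), against -0.17 (0.118) on the brightest. A called probe set naming SRSF2 with another symbol, at -0.25, entered no list. Aminoacyl-tRNA synthetases had a median of -0.06, 7 of 16 below and 0 called by limma (1 at an unadjusted p under 0.05). Proteasome subunits had a median of -0.027 and 9 of 27 below (33.3%), near the -0.025 and 28.1% of genes at or above the median signal, and 0 were called by limma (2 at an unadjusted p under 0.05).

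**Figure D3:**
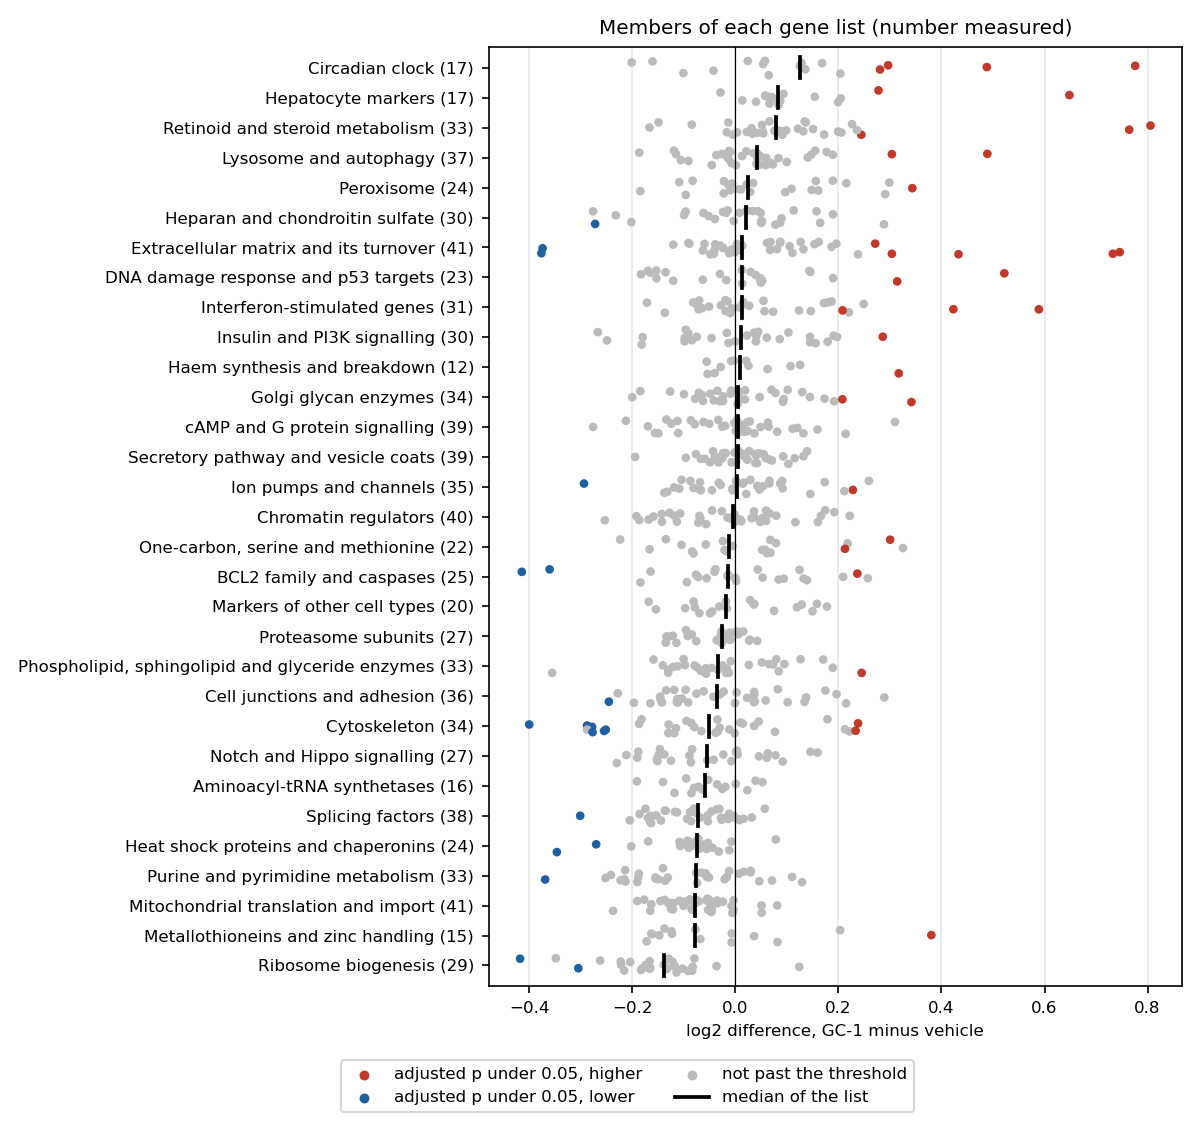
Log2 difference, GC-1 minus vehicle, for every measured gene of 31 lists, with the number measured in brackets. Red and blue points passed the threshold (higher and lower), grey points did not, and the black bar is the list's median; the medians run from -0.14 for ribosome biogenesis to 0.12 for the clock.

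The cytoskeleton was the list with most decreases called, 6 of 34 (17.6%), with 2 higher (5.88%). Over all genes 1.16% were called lower and 2.1% higher. KRT18, a keratin of simple epithelia, had 12.71, 12.81 and 12.78 with vehicle and 12.48, 12.47 and 12.48 with GC-1. It fell by 0.29 (adjusted p = 0.0143), on a probe set of a type that can bind several transcripts. KRT19, its relative in bile duct cells, fell by 0.28 (adjusted p = 0.041). TPM1 (tropomyosin) fell by 0.28, EZR (ezrin, which ties membrane to actin) by 0.26, and STMN1 (stathmin, which destabilises microtubules) by 0.25, with adjusted p of 0.0186, 0.0152 and 0.0288. TUBB2A, a beta tubulin, rose by 0.24 (adjusted p = 0.035), and GSN, the actin-severing gelsolin, by 0.23 (adjusted p = 0.0329). The decreases numbered 0 without vehicle replicate 2, without GC-1 replicate 2 and without GC-1 replicate 3, and at most 4 without any other vehicle or GC-1 array. The increases numbered 0 without any 1 vehicle array or GC-1 replicate 1 or 2. Of 36 junction and adhesion genes, the desmosomal cadherin DSG2 alone passed, with a fall of 0.25 (adjusted p = 0.0288) that was lost without any 1 vehicle or GC-1 array.

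In the lysosome and autophagy list and in the peroxisome list the few genes that passed were higher, against 2.1% higher over all genes. All GC-1 arrays lay above the vehicle arrays in 10 of 37 and 8 of 24 genes, and below in 5 and 4. Over all genes these shares were 12.0% above and 17.3% below. WIPI1, which binds phosphoinositides on forming autophagosomes, had 9.07, 8.90 and 8.99 with vehicle and 9.48, 9.52 and 9.43 with GC-1. It rose by 0.49 (adjusted p = 0.00197), and its 2 probe sets gave 0.49 and 0.51. GABARAPL1, an ATG8 family protein, rose by 0.30 (adjusted p = 0.0148), for a list count of 2 higher and 0 lower of 37 and a median of 0.04. The call of GABARAPL1 was lost without replicate 1 or 2 of either group. In the peroxisome list 1 of 24 rose: PECR, an enoyl-CoA reductase, by 0.34 (adjusted p = 0.00261). Its vehicle arrays read 10.06, 10.07 and 10.11 and its GC-1 arrays 10.44, 10.39 and 10.44, so the shift was several times the spread. PIPOX (0.30, adjusted p = 0.0523) and PHYH, which starts alpha oxidation of phytanic acid (0.29, adjusted p = 0.0525), fell just short of the threshold.

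Among 31 interferon-stimulated genes 3 rose (9.68%, against 2.1% of all genes) and 0 fell, with a median of 0.01. ISG20, an exonuclease, had 7.71, 7.40 and 7.61 with vehicle and 8.13, 8.23 and 8.13 with GC-1. It rose by 0.59 (1.5-fold, adjusted p = 0.00124), on both of its probe sets. GBP2, a guanylate-binding protein, had 6.39, 6.49 and 6.41 with vehicle and 6.91, 6.86 and 6.79 with GC-1, a rise of 0.42 (adjusted p = 0.00131). IRF9, a subunit of the factor that carries the interferon signal, rose by 0.21 (adjusted p = 0.035). The IRF9 call was lost under scale normalization, under median centring and without any single vehicle or GC-1 array.

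Stress and death genes were mixed. GDF15, a secreted stress cytokine, had 10.93, 10.95 and 11.01 with vehicle and 11.65, 11.42 and 11.38 with GC-1. It rose by 0.52 (adjusted p = 0.00518) on 1 of 2 probe sets. GADD45B, a stress sensor, rose on all 4 of its probe sets, by 0.31 to 0.82. The brightest of them was not called without vehicle replicate 3 or GC-1 replicate 2 or 3. GDF15 and GADD45B were the 2 of 23 DNA damage and p53 genes that rose (8.7%), and 0 fell. The BCL2 and caspase list had 4% higher and 8% lower of 25 genes. Over all genes 2.1% were called higher and 1.16% lower. In the BCL2 and caspase list, the survival gene BCL2L1 rose by 0.24 (adjusted p = 0.0309), and BIK and PMAIP1, both death promoters of the BH3-only kind, fell. BIK had 7.89, 7.81 and 7.97 with vehicle and 7.41, 7.60 and 7.58 with GC-1, a fall of 0.36 (adjusted p = 0.0203). The BCL2L1 and PMAIP1 calls were lost without any single vehicle or GC-1 array, and that of BIK without vehicle replicate 1 or 3 or GC-1 replicate 1 or 3.

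Metabolic and signalling lists held few calls. Over all genes 3.26% were called, 2.1% higher and 1.16% lower, so 1 call among 30 or more genes is near that share. In the one-carbon list BHMT, which remethylates homocysteine, rose by 0.30 (adjusted p = 0.0316) and MAT1A, which makes S-adenosylmethionine in liver, by 0.21 (adjusted p = 0.0416), 2 of 22. ALAD of haem synthesis rose by 0.32 (adjusted p = 0.0108), 1 of 12. Of 30 genes of insulin and PI3K signalling, IRS1, the docking protein of the insulin receptor, rose by 0.29 (adjusted p = 0.0221), and the receptor INSR differed by 0.19 (0.0895). LPIN2, a phosphatidate phosphatase, rose by 0.24 (adjusted p = 0.0454), 1 of 33 phospholipid and glyceride genes. The sialyltransferases ST3GAL6 and ST6GAL1 rose by 0.34 and 0.21 (adjusted p = 0.00586 and 0.0442), 2 of 34 Golgi glycan enzymes. PAPSS1, which makes the sulfate donor, fell by 0.27 (adjusted p = 0.0132), 1 of 30 heparan and chondroitin sulfate genes. ATP2B1, a calcium pump, fell by 0.29 (adjusted p = 0.0132) and ATP1B1, a sodium pump subunit, rose by 0.23 (adjusted p = 0.0324), 2 of 35 ion pumps and channels. SLC30A1, a zinc exporter, rose by 0.38 (adjusted p = 0.0478), 1 of 15 metallothionein and zinc genes, whose median was -0.08. Except for ST3GAL6, each call in these lists depended on single arrays. BHMT, MAT1A, IRS1, LPIN2, ST6GAL1, ATP1B1 and SLC30A1 were lost when any 1 vehicle or GC-1 array was left out. ALAD was lost without replicate 1 or 2 of either group, PAPSS1 without vehicle replicate 1 or 2 or GC-1 replicate 2 or 3, and ATP2B1 without vehicle replicate 1 or 3 or GC-1 replicate 1 or 2.

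In 4 lists 0 genes were called by limma on their brightest probe set. At an unadjusted p under 0.05, 9 of 40 chromatin regulators, 8 of 27 Notch and Hippo genes, 10 of 39 cAMP and G protein genes and 3 of 39 secretory pathway genes differed. The share of all genes at that unadjusted p is not given. These and the other unadjusted counts therefore cannot be read as particular to a list. The polycomb methyltransferase EZH2 was at -0.19 (adjusted p = 0.0564) and the deacetylase HDAC2 at -0.19 (0.0629). HES1, a Notch target, was at -0.19 (0.107), and PRKAR1A, the regulatory subunit of protein kinase A, at 0.31 (0.0584) on its brightest probe set. The other PRKAR1A probe sets passed, at 0.52 and 0.36 (adjusted p = 0.00197 and 0.00707).

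Genes with several probe sets gave a check within the array. Of 142 called genes with at least 2 probe sets, 116 had the same sign on every one and 61 had another one called in the same direction. A further 70 genes were called only on a probe set other than their brightest. Another 72 called probe sets had no single symbol and entered no gene count. Of all called probe sets, 55 were of the type that can bind several transcripts, noted above for KRT18. The values read for SETMAR, DLEU2, SLC1A4, SRSF7, GDF15, GADD45B and APOC1 also came from probe sets of that type. In 7 genes outside the set of 52, all of 3 or more probe sets passed in 1 direction: HLF, LOX and GADD45B, given above, and HGD, AGXT, IL13RA1 and PEBP1. HGD, which breaks down homogentisate on the tyrosine pathway, had 10.53, 10.59 and 10.47 with vehicle and 10.997, 10.932 and 10.944 with GC-1. It rose by 0.43 (adjusted p = 0.000858), and by 0.40 to 0.45 over its probe sets. AGXT, the peroxisomal enzyme that detoxifies glyoxylate, rose by 0.37 (adjusted p = 0.00443; 0.32 to 0.55 over its probe sets). The interleukin-13 receptor chain IL13RA1 rose by 0.33 (adjusted p = 0.00832) and PEBP1, an inhibitor of RAF kinase, by 0.34 (adjusted p = 0.013). PEBP1 was not called without vehicle replicate 1 or 3 or GC-1 replicate 1 or 2. No gene outside the set of 52 had probe sets called in opposite directions.

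GC-1 and T3 were given at the same dose and time, and both were compared with the same vehicle arrays, so their differences from vehicle are not independent. T3 changed 744 genes (6.22%), 539 higher (4.51%) and 205 lower (1.71%). All 15 leading increases also passed with T3, and 10 of the 15 leading decreases. C8B rose by 1.21 with T3 and 1.04 with GC-1, GBE1 by 0.94 and 0.81, HSD17B2 by 0.93 and 0.81, and DBP by 0.77 and 0.78. The 30 direct differences, GC-1 minus T3, lay between -0.25 (BARD1) and 0.12 (HEG1). After adjustment over all probe sets none passed (smallest adjusted p = 0.213, limma), and over the whole array 0 did (3122 probe sets at an unadjusted p under 0.05). The 30 genes were chosen by their GC-1 difference from vehicle, which favours a larger change with GC-1 among them. In 12 of the 15 decreases the change was larger with GC-1, while 12 of the 15 increases were smaller with GC-1. The intervals are therefore no independent test of the ligands. The 95% intervals of 7 of the 30 left out 0. Among these, LOX rose by 0.93 with T3 and 0.73 with GC-1 (difference -0.19, interval -0.31 to -0.07), and MMP11 by 0.93 and 0.75 (difference -0.18, interval -0.30 to -0.07). For BARD1 the difference from vehicle was -0.17 with T3 (adjusted p = 0.26) and -0.42 with GC-1, and the ligands differed by -0.25 (interval -0.42 to -0.07). All 30 intervals lay within 1.5-fold, which bounds how far the ligands could differ on these genes but does not show that they act alike.

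**Figure D4:**
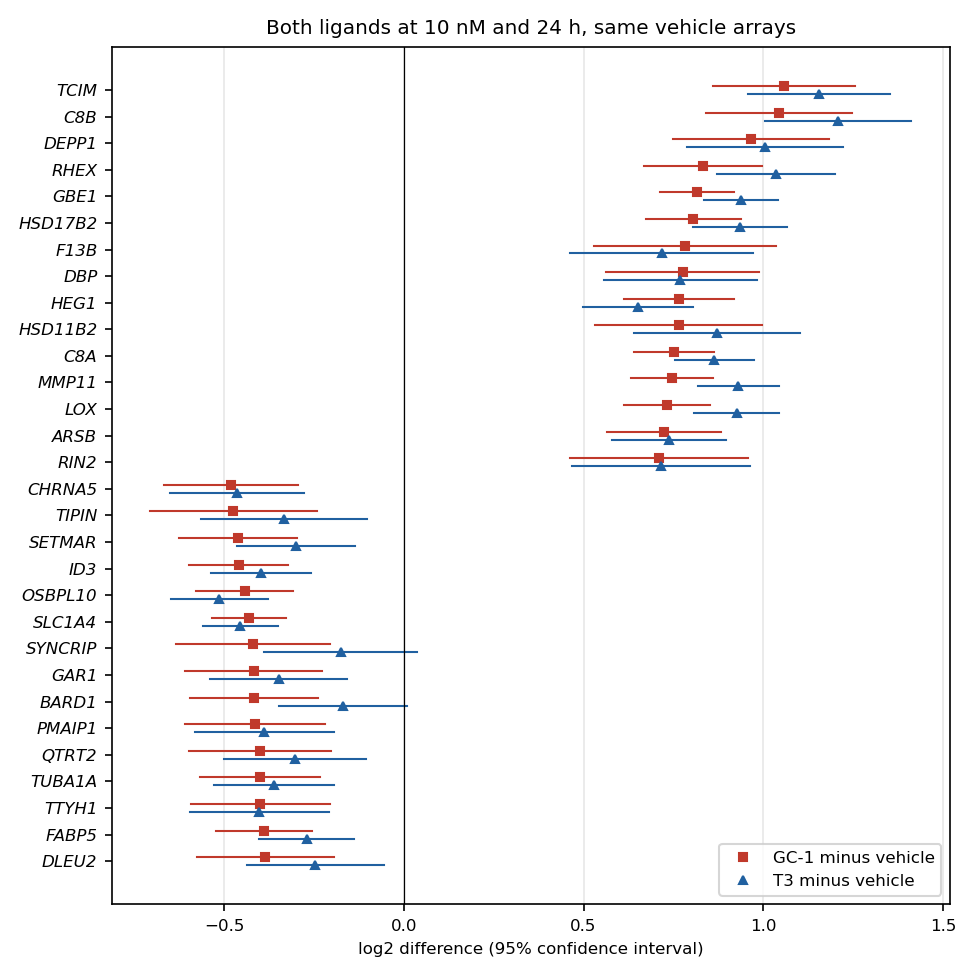
Log2 difference from the shared vehicle arrays for GC-1 (red squares) and T3 (blue triangles), both 10 nM for 24 h, with 95% confidence intervals, for the 30 leading genes. The ligands' intervals overlap for each gene shown, and the direct differences lie between -0.25 and 0.12.

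The T3 arrays were not uniform on the gene groups that moved down with GC-1. Averaged over the ribosome biogenesis list, T3 replicates 1, 2 and 3 lay at -0.03, -0.04 and -0.19 from the vehicle mean, against -0.15 to -0.17 for the GC-1 arrays. For TIPIN they read 8.63, 8.64 and 8.20. T3 replicate 3 was the lowest T3 array in 14 of the 15 leading decreases and in 7 of the 15 increases. This spread among T3 arrays enters the shared error, and leaving out T3 replicate 3 took the called decreases from 219 to 670 probe sets and the increases from 403 to 602.

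**Figure D5:**
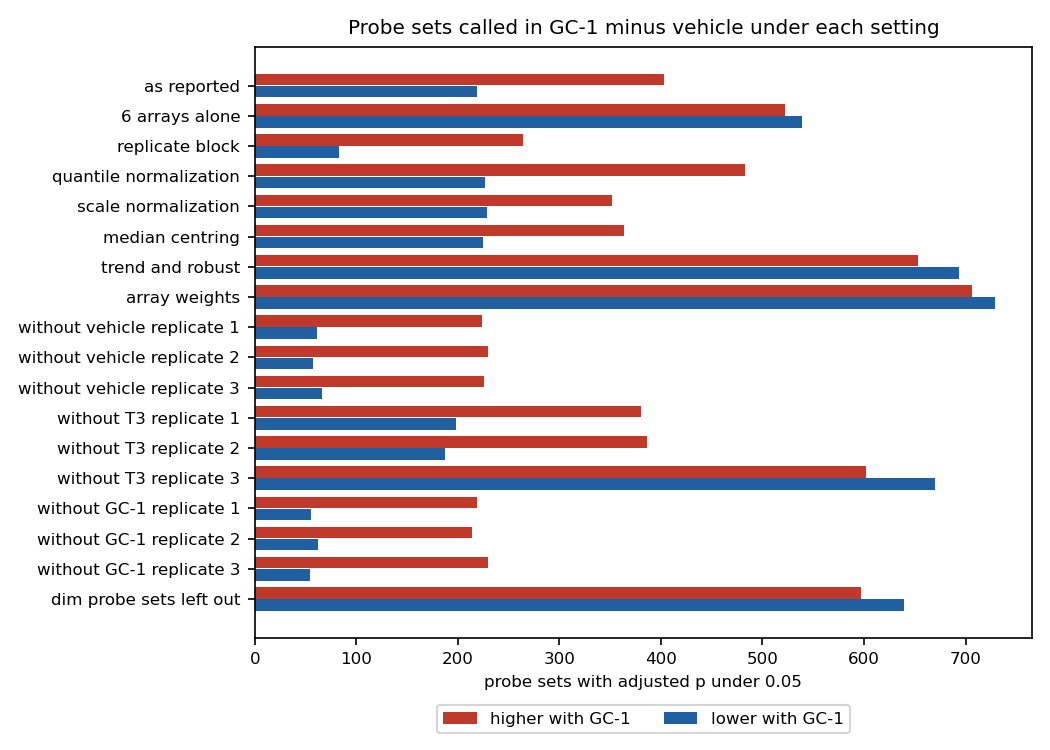
Probe sets past the threshold in GC-1 minus vehicle, higher (red) and lower (blue), in the reported fit and under each other setting. The reported 403 and 219 become 522 and 539 with the 6 arrays alone and 602 and 670 without T3 replicate 3, and leaving out a vehicle or GC-1 array gives 214 to 230 and 54 to 66.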

How the data were processed

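Biotin-labelled cRNA of 9 HepG2 samples was measured on Affymetrix arrays. The deposited values are log2 signals, for which the submitters' processing notes name RMA; version and genome build are not given in the sources used here. The log base was inferred from the range of values, and folds depend on it. Of 22277 probe sets, 62 controls were left out. The platform annotation gave 1 gene symbol for 19064, several for 1043 and none for 2108, and only the first were named. A gene was read from its probe set with the highest mean (11963 genes).

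The test was two-sided and used lmFit and eBayes of limma 3.58.1 (R 4.3.3), in 1 model of group means over 9 arrays, with Benjamini-Hochberg adjustment over 22215 probe sets and a threshold of 0.05. The fit was tested on simulated data. Lists were described by counts and medians, with no set test. Members, lists and rules were chosen with earlier results of these data known. Named were the 15 largest increases and decreases with arrays not overlapping (52 genes already examined left out), up to 4 genes a list by p, and genes with 3 or more probe sets all called. Other list members are named for their role, having been seen with their values. Promoters shown were those of the 2 largest increases and the largest decrease with an entry; TGTTTAC was searched after the sequences were seen. Alternatives were other normalizations, a filter on dim probe sets, other variance models, 6 arrays alone, a replicate block and leaving out each array. With 3 arrays a group, their number limits the precision.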

Additional observations from a re-analysis of the deposited data

How the results depend on the processing

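No named gene that was called changed sign under an alternative. The excess of called increases turned into an excess of decreases with the 6 arrays alone, trend and robust, array weights, dim probe sets left out and without T3 replicate 3. The counts of calls depended on the fit, and on which T3 arrays entered the shared spread. Probe sets changed (622 reported) numbered 1061 with the 6 arrays alone (522 higher and 539 lower), 347 with the replicate block (264 higher and 83 lower), 1347 with a trended and robust variance (653 higher and 694 lower), 1435 with array weights (706 and 729) and 1236 with dim probe sets left out (597 higher and 639 lower). Genes changed (390 reported) numbered 658 with the 6 arrays alone (331 lower), 211 with the replicate block (160 and 51), 859 with trend and robust (423 and 436), 891 with array weights (439 and 452) and 796 with dim probe sets left out (398 and 398). Leaving out 1 array gave 274 to 1272 probe sets, 214 to 602 of them higher and 54 to 670 lower, and 158 to 796 genes, 127 to 375 of them higher and 31 to 421 lower. Quantile, scale and median normalization kept every count within 1.5 times, as did the mean over probe sets of a gene. The share of called probe sets that were higher was 64.8% as reported and ran from 47.3% (without T3 replicate 3) to 81.0% (without GC-1 replicate 3) otherwise. Of the 403 and 219 reported calls, 402 and 219 were called with the 6 arrays alone and 261 and 82 with the block. Same-numbered vehicle and GC-1 arrays did not deviate together (correlations of -0.126, -0.106 and -0.043). These values show no strong shared shift. They cannot settle whether same-numbered samples were handled together, which is not in the labels. Dim genes such as F13B could not be called present or absent, and their folds are likely compressed.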

Other observations

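Genes of DNA replication and repair recur among the called decreases, a grouping chosen after the values were seen and not tested as a group. The clamp loader subunit RFC3 fell by 0.25, the replicative polymerase subunit POLE2 by 0.30, the helicase partner GINS2 by 0.32, MCMBP, which handles the replicative helicase, by 0.32, and MCM10 by 0.29. ORC1 of the origin recognition complex fell by 0.27 and WDHD1, which couples helicase and polymerase, by 0.27 on 1 of 3 probe sets. The checkpoint kinase CHEK1 fell by 0.29, the uracil glycosylase UNG by 0.28 and the exonuclease EXO1 by 0.20. Together with TIPIN and BARD1, these genes stood at an adjusted p under 0.05 (limma) among the 139 that fell. GINS2 passed under all 18 other settings and CHEK1 missed only without vehicle replicate 1, while each of the other genes named here missed the threshold without several single arrays.

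Several liver and immune genes outside the lists also rose, likewise picked after their values were seen. MBL2, the mannose-binding lectin that starts a complement pathway, rose by 0.70, and the apolipoprotein APOC1 by 0.69. The glutamate transporter SLC1A2 rose by 0.67 on 1 of its 3 probe sets, the others differing by 0.008 and -0.022, and the kinase MAP3K8 rose by 0.67. The urea cycle enzyme ARG1 rose by 0.53 and the interleukin-6 receptor IL6R by 0.52 on 1 of 2 probe sets, the other differing by 0.12. CYP19A1, which makes oestrogens, rose by 0.62, and CYP24A1, which inactivates vitamin D, by 0.46. IL6R was not called without vehicle replicate 1 or 2 or GC-1 replicate 1. CYP24A1 was not called without vehicle replicate 1 or 2, T3 replicate 1 or any GC-1 array. The others passed under all other settings.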
